A study of Mus musculus with 9 samples.

Results

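A set of 9 genes of the citric acid cycle and its entry step was examined in sorted mouse mammary tumour cells: the cycle enzymes *Cs*, *Idh3a*, *Ogdh*, *Suclg1*, *Sucla2*, *Fh1* and *Mdh2*, and the pyruvate dehydrogenase subunits *Pdha1* and *Dlat*. They were taken by gene name on the arrays, and the set was chosen with earlier results of these data known. The arrays carried 15 probes for these 9 genes among 41174 probes, and all 9 genes were among the 18262 genes tested. The tumours were of the MMTV Wnt-1 and MMTV-Her2 models, whose transgene (the ligand Wnt-1, or the receptor Her2) is expressed from a viral promoter active in mammary epithelium, and fresh GFP- cells were isolated by flow cytometry. The comparison was between 5 arrays of cells labelled as treated with Fzd8-CRD, a soluble Wnt-binding part of the receptor Frizzled 8, and 4 arrays labelled as controls, all described as biological replicates. Both tumour models are listed for every array, so they cannot be told apart, and animal ages are not given in the sources used here. The treatment field of the controls also names the inhibitor, so what they received is unclear. Every array carried RNA of the sorted cells in Cy5 and a pooled reference RNA in Cy3, and a log2 ratio above 0 means more signal from the tumour cells than from the reference.

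The citric acid cycle runs in the mitochondrial matrix. The pyruvate dehydrogenase complex makes acetyl-CoA from pyruvate, citrate synthase joins it to oxaloacetate, and the later enzymes oxidise the carbon stepwise, hand electrons to the respiratory chain and regenerate oxaloacetate. In growing tumour cells the cycle also supplies citrate, oxoglutarate and oxaloacetate for lipid and amino acid synthesis.

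RNA of *Suclg1*, the alpha subunit of succinyl-CoA ligase, and of *Cs*, citrate synthase, was lower in the Fzd8-CRD cells. The fall of *Suclg1* was 0.92 on the log2 scale (SE 0.12) and a level 0.53 of the control, and *Cs* stood at 0.7 of the control. These 2 of 9 genes (22.2%) passed limma's test at an adjusted p under 0.05, where 14.3% of all genes tested passed and 7.75% were called lower. 0 of the 9 rose, against 6.59% of all genes. At an unadjusted p under 0.05 limma gave 6 lower and 0 higher of the 9. The share of all genes at that threshold was not computed, but it must exceed the 14.3% that passed after adjustment. All 9 differences were below 0, with a median of -0.41, where 56.9% of all genes were below 0 and their median was -0.07. The 9 enzymes were well above background on all 9 arrays, and among all genes with that property 8.69% were called lower and 54.4% were below 0. In the tumour cells' dye alone, Cy5, the genes that fell were *Suclg1* and *Fh1*, fumarase. *Cs* did not pass there.

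The arrays differed in more than the treatment label. The 4 control arrays shared 1 slide and 1 scan day, the Fzd8-CRD arrays were spread over 4 slides and 2 scan days, and 0 slides held both groups. The groups shared no scan day either, so slide, scan day and treatment cannot be told apart. Fewer probes stood well above background with Fzd8-CRD, 52.4% to 60% in Cy5 against 63.8% to 70.8%, and Cy3 gave 58.6% to 65.7% against 71.8% to 74.9%. For 59% of genes the reference dye itself differed (limma, adjusted p under 0.05), and the sources used here describe the reference in 3 ways that disagree. All 8 epithelial markers examined were well above background on all 9 arrays, 0 fell and 1 rose (limma, adjusted p under 0.05). At an unadjusted p under 0.05 limma gave 2 lower, *Krt18* (-1.15) and *Cdh1* (-0.59), and 2 higher, *Krt5* (0.8) and *Krt14* (0.79). More than 14.3% of all genes met that threshold. *Krt5*, the one that rose, gave 0.065 in Cy5 and -0.8 in Cy3, the reference. The median gene-centred ratio of the 8 epithelial markers ran from -0.79 to 0.49 on the Fzd8-CRD arrays and from -0.26 to 0.45 on the controls. Markers of other cell types were often too dim on the Fzd8-CRD arrays to pass other than through the controls, so calls are given only for those well above background on all 9 arrays (limma, adjusted p under 0.05). Of these, 4 of 5 endothelial, 1 of 7 fibroblast, 1 of 1 erythrocyte and 1 of 1 adipocyte markers fell. Among all genes well above background on all 9 arrays 8.69% were called lower. For macrophage and lymphocyte markers 0 of 5 and 0 of 1 fell, with 2 and 1 lower at an unadjusted p under 0.05 in limma, which more than 14.3% of all genes met. Over all measured markers of a type, the array medians of the Fzd8-CRD and control arrays were -1.18 to 0.3 against 0.43 to 1.45 (endothelial), -1.21 to 0.36 against -1.03 to 2.25 (fibroblast) and -0.4 to -0.1 against -0.02 to 0.91 (macrophage). They were -0.28 to -0.16 against -0.16 to 1.78 (lymphocyte), -1.95 to -0.82 against 0.68 to 5.12 (erythrocyte) and -0.54 to -0.15 against -0.14 to 0.97 (adipocyte). These medians of each type include dim markers that passed the filter only through the controls. The filter itself thus sets part of each difference, and no group difference is read from the medians. Control replicate 2 was the highest array for all of these types but adipocytes. Without it the highest control was 1.08 for endothelial, 1.17 for fibroblast, 0.05 for macrophage, -0.04 for lymphocyte and 1.54 for erythrocyte markers. The part of these cell types in the enzyme values was not tested. In such bulk samples fewer cells of a type and less RNA per cell cannot be told apart.

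The promoters of the 3 genes called lower in the ratio or in Cy5 are shown because they are where these RNAs begin. *Cs* was called in the ratio only. *Fh1* was called in Cy5 only, and its reference in Cy3 was lower too. The windows run from 250 bases before the RefSeq start to 50 after it, in GRCm38.p6, and read 5′ to 3′ on the gene's strand. *Suclg1* lies at chr6:73248255-73248554 (plus strand), *Cs* at chr10:128337477-128337776 (plus strand) and *Fh1* at chr1:175625586-175625885 (minus strand). Capitals mark any of 4 strings searched on both strands: an ETS core (CCGGAAG), the CCAAT box itself, an E-box (CACGTG) and a GC box (GGGCGG).
Suclg1: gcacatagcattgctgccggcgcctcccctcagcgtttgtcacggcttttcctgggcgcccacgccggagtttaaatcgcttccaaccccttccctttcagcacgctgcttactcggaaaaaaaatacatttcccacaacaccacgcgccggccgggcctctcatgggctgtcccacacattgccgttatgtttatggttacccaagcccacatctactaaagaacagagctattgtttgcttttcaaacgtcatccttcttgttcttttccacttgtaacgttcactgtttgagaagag
Cs: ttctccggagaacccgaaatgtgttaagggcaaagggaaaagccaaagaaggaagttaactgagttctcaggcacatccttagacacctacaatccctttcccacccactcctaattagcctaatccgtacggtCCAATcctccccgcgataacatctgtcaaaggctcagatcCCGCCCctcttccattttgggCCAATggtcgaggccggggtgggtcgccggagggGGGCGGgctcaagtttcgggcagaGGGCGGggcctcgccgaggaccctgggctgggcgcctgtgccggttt
Fh1: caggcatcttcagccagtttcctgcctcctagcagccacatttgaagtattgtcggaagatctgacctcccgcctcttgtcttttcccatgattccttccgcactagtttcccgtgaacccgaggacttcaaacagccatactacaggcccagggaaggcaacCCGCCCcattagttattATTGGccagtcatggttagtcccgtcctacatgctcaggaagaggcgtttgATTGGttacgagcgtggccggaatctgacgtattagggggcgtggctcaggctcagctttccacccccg
None of the 4 strings lies in the *Suclg1* window. The *Cs* window holds 2 CCAAT boxes and 3 GC boxes, and that of *Fh1* 2 CCAAT boxes and 1 GC box. A window was listed for 8 of the 9 genes. The GC box occurred in 6 of these 8 genes, against 35.7% of all 32851 mouse windows of that length, and CCAAT in 3 of 8 against 37.4%. The E-box occurred in 1 of 8 (7.15% of all windows), and the ETS core in 0 of 8 (8.86%). *Ogdh* has 6 windows, each counted as its own among all windows. A match describes letters and says nothing of a factor's binding.

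Pyruvate enters through the pyruvate dehydrogenase complex. *Pdha1* encodes the alpha subunit of its E1 component, which decarboxylates pyruvate and is the site of its control by phosphorylation. The log2 ratio of *Pdha1* was 0.34, 0.22, 0.58, 0.23 and 0.07 on Fzd8-CRD replicates 1 to 5 and 0.49, 0.61, 0.86 and 0.78 on control replicates 1 to 4. Fzd8-CRD replicate 3 lay above control replicate 1, and the other 4 Fzd8-CRD arrays lay below all controls. The difference in the ratio was -0.4 (SE 0.14, adjusted p = 0.0806 in limma). The single dyes moved the other way for this gene: Cy5 was 0.3 higher in Fzd8-CRD (SE 0.16, adjusted p = 0.209), and Cy3, the reference, 0.59 higher (SE 0.078, adjusted p = 6.25e-05). A second *Pdha1* probe gave -0.081 in the ratio (adjusted p = 0.709 in limma) and -0.081 in Cy3 (adjusted p = 0.177), so the probes disagree on the reference.

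*Dlat* encodes the E2 acetyltransferase of the same complex, which carries acetyl groups on lipoyl arms. Its log2 ratio was -0.53, -0.68, -0.92, -0.89 and -0.79 on Fzd8-CRD replicates 1 to 5 and -0.75, -0.28, -0.22 and -0.13 on the controls in order. Control replicate 1 lay among the Fzd8-CRD arrays, and the other 3 controls lay above them all. The mean was -0.76 ± 0.16 (SD, n = 5) against -0.35 ± 0.28 (SD, n = 4), which differ by -0.41 with SE 0.15 and an adjusted p of 0.0986 in limma. Without control replicate 1 the difference was -0.55 and passed (adjusted p = 0.029 in limma). The dimmer second probe of *Dlat* gave -0.027 (SE 0.15, adjusted p = 0.92 in limma), so the probes disagree.

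*Cs* joins acetyl-CoA to oxaloacetate and is often used as a measure of mitochondrial content. Its log2 ratio was -0.78, -0.75, -0.57, -0.75 and -0.78 on the Fzd8-CRD arrays and -0.54, -0.13, -0.09 and -0.1 on the controls. The groups did not overlap, but Fzd8-CRD replicate 3 and control replicate 1 nearly met. All Fzd8-CRD arrays lay below all controls for 2 of the 9 genes, *Cs* and *Suclg1*, against 11.7% of all genes (19.6% in either direction). The mean of *Cs* was -0.73 ± 0.088 (SD, n = 5) in Fzd8-CRD and -0.21 ± 0.22 (SD, n = 4) in control cells. They differed by -0.51 (SE 0.13, adjusted p = 0.0281 in limma). The second *Cs* probe fell by 0.68 (SE 0.12, adjusted p = 0.00816 over all probes in limma), and its groups did not overlap either. For that probe Cy5 alone differed by -0.37 (adjusted p = 0.0804 in limma), and the reference in Cy3 was 0.26 higher on the Fzd8-CRD arrays (adjusted p = 0.000654). In Cy5 alone the difference of *Cs* was -0.37 (SE 0.15, adjusted p = 0.102) and the groups overlapped. The call was lost when Fzd8-CRD replicate 1, 2, 4 or 5 or control replicate 3 or 4 was left out, with differences from -0.51 to -0.47 and adjusted p from 0.0564 to 0.0816 in limma.

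*Idh3a* encodes the catalytic alpha subunit of NAD-dependent isocitrate dehydrogenase, a rate-controlling step. Its log2 ratio was -0.82, -1.07, -0.7, -0.93 and -0.56 on the Fzd8-CRD arrays and -0.46, -0.84, -0.09 and 0.18 on the controls. Control replicate 2 lay among the Fzd8-CRD arrays. The difference of -0.51 equalled that of *Cs*, but with SE 0.21 it did not pass (adjusted p = 0.123 in limma). Without control replicate 2 it was -0.69 and passed (adjusted p = 0.0291 in limma). That control array also had the highest endothelial, fibroblast, macrophage, lymphocyte and erythrocyte marker values, whose part in this was not tested.

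*Ogdh* encodes the E1 component of the oxoglutarate dehydrogenase complex, which makes succinyl-CoA. The ratio of *Ogdh* was -0.01, -0.03, 0, 0.42 and 0.24 on the Fzd8-CRD arrays and -0.07, 0.85, 0.26 and 0.03 on the controls. The groups overlapped throughout, and control replicate 2 was highest. The difference was -0.14 (SE 0.2, adjusted p = 0.643 in limma) and 0.05 without control replicate 2. Both probes gave about the same ratio difference, -0.14 and -0.13, but opposite values in the single dyes: 0.26 in Cy5 and 0.28 in Cy3 for the brighter, -0.27 and -0.27 for the other.

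Succinyl-CoA ligase splits succinyl-CoA and makes a nucleoside triphosphate, with *Suclg1* as the shared alpha subunit and *Sucla2* and *Suclg2* as alternative beta subunits that set the choice of ADP or GDP. The log2 ratio of *Suclg1* was -1.22, -1.45, -1.01, -1.29 and -1.16 on the Fzd8-CRD arrays and -0.31, -0.46, -0.23 and -0.21 on the controls. Every Fzd8-CRD array lay below every control, with a clear gap. The mean was -1.22 ± 0.16 (SD, n = 5) in Fzd8-CRD and -0.31 ± 0.11 (SD, n = 4) in control cells. They differed by -0.92 (SE 0.12, adjusted p = 0.00424 in limma). Its normalized log2 Cy5 signal was 11.03, 10.71, 11.2, 10.97 and 11 on the Fzd8-CRD arrays and 12.22, 11.85, 12.15 and 12.15 on the controls. Cy5 alone thus fell by 1.11 (SE 0.13, adjusted p = 0.00166 in limma), also without overlap. Cy3 was lower too, by a smaller amount, with a difference of -0.2 (SE 0.047, adjusted p = 0.00303). With arrays centred on their median in place of loess, the ratio difference of *Suclg1* was -0.89 and did not pass (adjusted p = 0.171 in limma).

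The beta subunit *Sucla2* read -0.15, -0.23, -0.26, -0.42 and -0.29 on the Fzd8-CRD arrays and -0.23, -0.22, 0.28 and 0.25 on the controls. Control replicates 3 and 4 lay above all Fzd8-CRD arrays, and control replicates 1 and 2 among them. The difference was -0.29 (SE 0.14, adjusted p = 0.196 in limma), and a second probe gave -0.33 (adjusted p = 0.332). The third probe named *Sucla2* was well above background on 0 of the 9 arrays. The other beta subunit, *Suclg2*, differed by -0.69 (SE 0.22, adjusted p = 0.0647 in limma), and its dimmer probe fell by 0.88 (SE 0.2, adjusted p = 0.0214).

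*Fh1* encodes fumarase, which hydrates fumarate to malate and whose loss is known from hereditary tumours. Its log2 ratio was -0.84, -0.9, -1.09, -1.2 and -1.18 on the Fzd8-CRD arrays and -0.86, -0.75, -0.87 and -0.81 on the controls. Fzd8-CRD replicate 1 lay within the controls and the other 4 below them. The ratio difference was -0.22 (SE 0.12, adjusted p = 0.219 in limma). The normalized log2 Cy5 signal was 11.14, 11.18, 10.83, 10.77 and 10.67 on the Fzd8-CRD arrays and 11.84, 11.69, 11.71 and 11.76 on the controls, without overlap. Cy5 fell by 0.83 (SE 0.14, adjusted p = 0.00533 in limma). The reference signal in Cy3 was 12.17, 12.27, 12.04, 12.17 and 11.95 against 12.7, 12.71, 12.79 and 12.74, a fall of nearly the size of that in Cy5. The Cy3 difference was -0.61 (SE 0.06, adjusted p = 5.81e-06 in limma), so for *Fh1* the fall in Cy5 came with a fall in the reference, and the part of array, dye or reference in it was not tested.

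*Mdh2* encodes mitochondrial malate dehydrogenase, which closes the cycle by making oxaloacetate. The log2 ratio of *Mdh2* was -0.71, -0.86, -0.96, -0.56 and -0.72 on the Fzd8-CRD arrays and -0.77, -0.47, 0.03 and -0.19 on the controls. Control replicate 1 lay among the Fzd8-CRD arrays, and the other controls lay above them all. The difference was -0.41 (SE 0.17, adjusted p = 0.131 in limma). It was -0.55 and passed without control replicate 1 (adjusted p = 0.047).

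**Figure D1:**
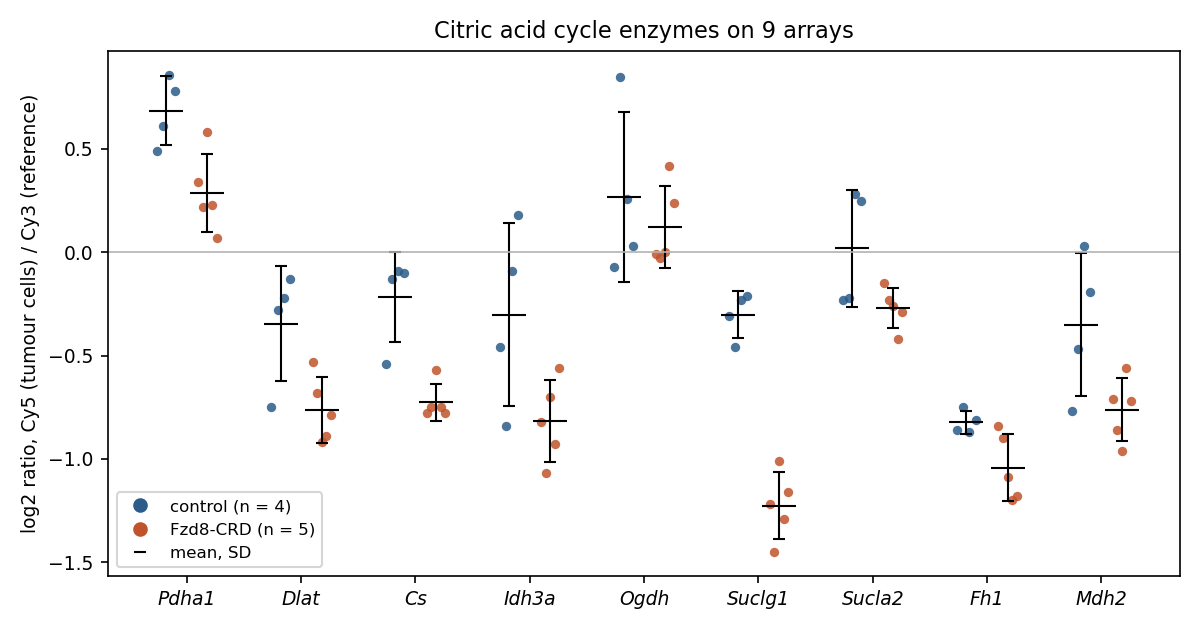
Log2 ratio of Cy5 to Cy3 of each enzyme on the 5 Fzd8-CRD and 4 control arrays, 1 point per array, with the mean and SD. *Suclg1* lies between -1.45 and -1.01 on the Fzd8-CRD arrays and between -0.46 and -0.21 on the controls. The groups overlap for every enzyme but *Suclg1* and *Cs*.

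Each dye taken alone gave a different view of the same 9 genes. In Cy5, 2 of 9 fell (limma, adjusted p under 0.05) against 8.8% of all genes, and 0 rose against 10.1%. In either direction 18.9% of all genes passed in Cy5, and for 12.6% every Fzd8-CRD array lay below every control. At an unadjusted p under 0.05, which more than 18.9% of all genes met in Cy5, limma gave 4 lower and 0 higher. *Pdha1* and *Ogdh* were above 0 in Cy5 and the other 7 below, with a median of -0.31 beside -0.01 for all genes, of which 50.5% were below 0. In Cy3, which the labels give to the pooled reference, 6 of the 9 differed (limma, adjusted p under 0.05) against 59% of all genes: *Pdha1*, *Ogdh*, *Mdh2* and *Idh3a* were higher on the Fzd8-CRD arrays (27% of all genes), and *Suclg1* and *Fh1* lower (32%). *Suclg1* was the one gene of the 9 that passed in the ratio and in Cy5. With each array's Cy5 centred on its median, all 9 were below 0 and 4 fell (*Cs*, *Suclg1*, *Fh1* and *Mdh2*), but the median of all genes then also lay at -0.19, so *Ogdh* at -0.14 and *Pdha1* at -0.17 stood near it.

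**Figure D2:**
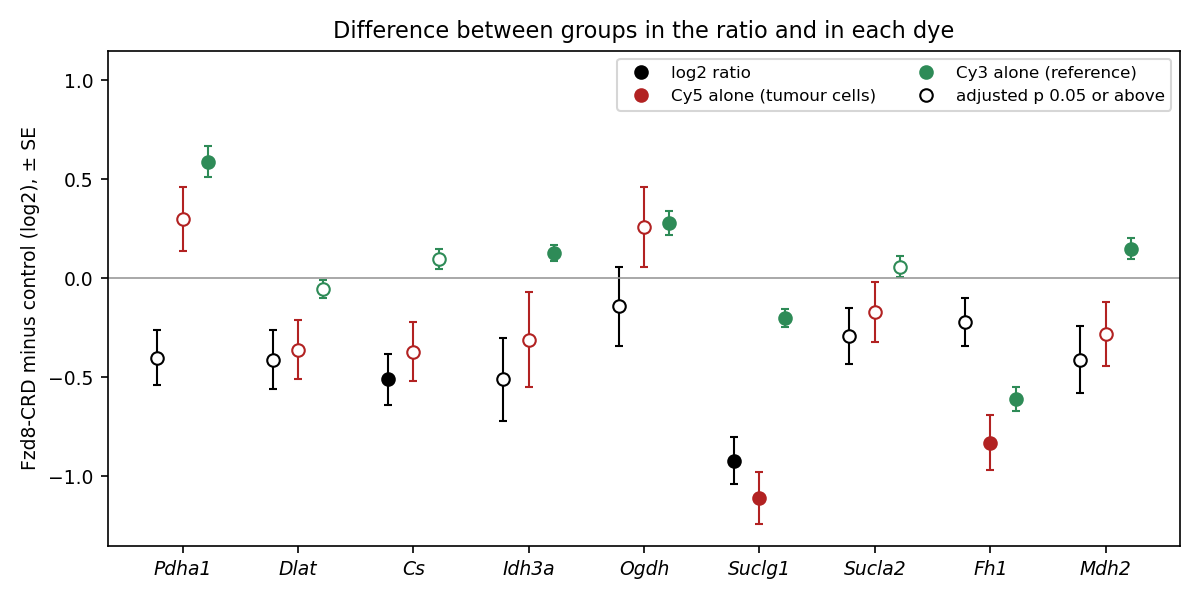
Difference between Fzd8-CRD and control, with SE, in the log2 ratio, in Cy5 alone and in Cy3 alone, where open symbols have an adjusted p of 0.05 or above. *Suclg1* falls in Cy5 (-1.11) far more than in Cy3 (-0.2), *Fh1* falls in both (-0.83 and -0.61), and *Pdha1* is higher in Cy3 (0.59).

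Array by array, each gene's ratio was centred on its mean over the 9 arrays. The median of the 9 enzymes was -0.13, -0.24, -0.14, -0.26 and -0.21 on Fzd8-CRD replicates 1 to 5, and -0.05, 0.2, 0.41 and 0.39 on control replicates 1 to 4. The medians of all genes lay between -0.09 and 0.03 on these arrays. Control replicates 3 and 4 were the highest for the enzymes and control replicate 1 the nearest to the Fzd8-CRD arrays. It lay above the highest Fzd8-CRD array for 3 of the 9 genes, against 7, 7 and 8 for control replicates 2, 3 and 4. The share of all genes on each array was not computed, so whether these counts are particular to the enzymes was not tested.

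**Figure D3:**
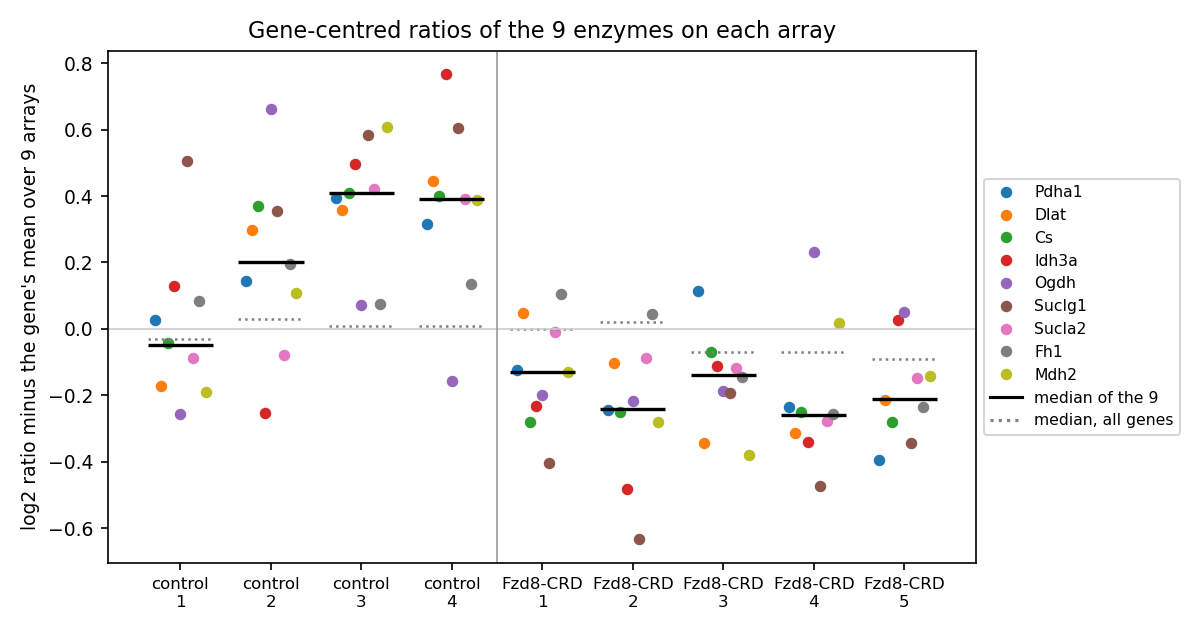
Gene-centred log2 ratio of the 9 enzymes on each array, with their median as a bar and the median of all genes as a dotted line. The Fzd8-CRD medians lie between -0.26 and -0.13, and the control medians run from -0.05 on replicate 1 to 0.41 on replicate 3.

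Genes were ranked by nearness in pattern to the mean of the 9 enzymes, as the mean absolute difference of centred log2 ratios over the 9 arrays. The enzymes and the lists of genes around the cycle, with other cycle subunits and general mitochondrial proteins, were left out of the ranking. The nearest 5 held *Rpl8*, a cytosolic ribosomal protein, at 0.047 and *Duox2*, an oxidase that makes hydrogen peroxide, at 0.061. The 3 others of the nearest 5 carried only transcript identifiers. Among the enzymes themselves, *Cs* (0.073) and *Pdha1* (0.075) lay closest to their common mean, and *Ogdh* (0.262) and *Suclg1* (0.245) farthest from it.

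Further subunits of the cycle enzymes were read with the same test. Over the 20 subunits reported, 4 fell in the ratio (20%), *Cs*, *Suclg1*, *Sdhb* and *Idh3b*, and 0 rose (limma, adjusted p under 0.05). Of all genes tested 7.75% were called lower and 6.59% higher. At an unadjusted p under 0.05, which more than 14.3% of all genes met, limma gave 11 lower and 1 higher of the 20. Their median was -0.4 with 18 below 0, beside -0.07 and 56.9% for all genes, and the subunits were listed with earlier results of these data known. *Sdhb* encodes the iron-sulfur subunit of succinate dehydrogenase, which oxidises succinate and feeds the respiratory chain. The log2 ratio of *Sdhb* was -1.58, -1.72, -1.44, -1.59 and -1.45 on the Fzd8-CRD arrays and -0.91, -0.27, -0.3 and -0.3 on the controls, without overlap. It fell by 1.11 (SE 0.15, adjusted p = 0.00476 in limma). In Cy5 alone it fell by 1.26 (adjusted p = 0.00157).

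*Idh3b*, a beta subunit partner of *Idh3a*, read -1.09, -1.11, -0.7, -1.23 and -0.78 on the Fzd8-CRD arrays and -0.21, -0.42, -0.17 and -0.14 on the controls. The groups were apart, and the difference was -0.75 (SE 0.14, adjusted p = 0.0111 in limma). In Cy5 alone it was -0.27 (adjusted p = 0.325), with Cy3 0.37 higher. *Sdha*, the flavoprotein subunit, fell in Cy5 (-0.73, adjusted p = 0.0476 in limma) but not in the ratio (-0.58, adjusted p = 0.13), and its other probes gave 0.02 and -0.49. The membrane anchors *Sdhc* and *Sdhd* gave -0.71 (adjusted p = 0.0502 in limma) and -0.04 (adjusted p = 0.902). *Dld* and *Dlst*, the subunits with values above 0, gave 0.22 and 0.28 (adjusted p = 0.292 and 0.155 in limma), and other probes of each gave values of either sign.

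**Figure D4:**
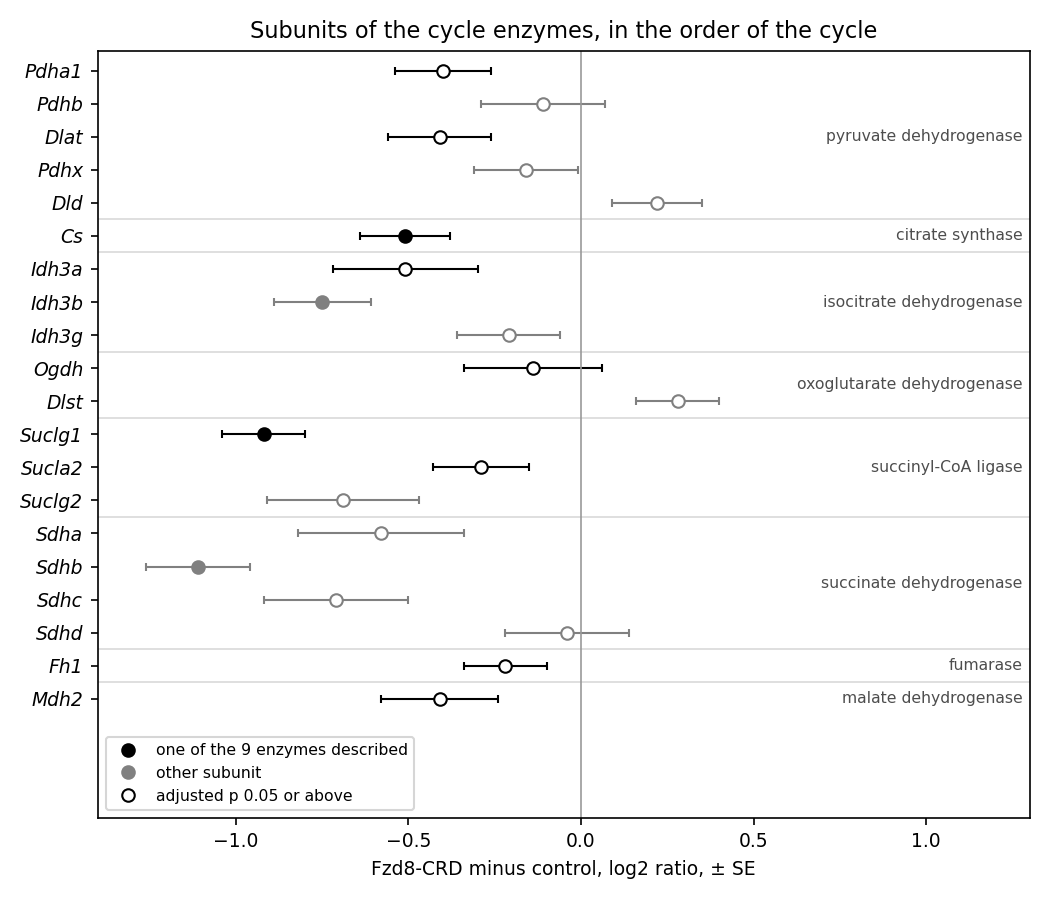
Difference in log2 ratio between Fzd8-CRD and control, with SE, for 20 subunits in the order of the cycle, where filled symbols have an adjusted p under 0.05. *Sdhb* (-1.11), *Suclg1* (-0.92), *Idh3b* (-0.75) and *Cs* (-0.51) are filled, and *Dld* (0.22) and *Dlst* (0.28) lie above 0.

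Genes around the cycle were read from lists with the same test, which called 7.75% of all genes lower and 6.59% higher in the ratio. Of 17 measured genes that feed or drain the cycle or act beside it, 2 fell and 0 rose (limma, adjusted p under 0.05, with 2 lower and 0 higher unadjusted). More than 14.3% of all genes met an unadjusted p under 0.05 in limma. *Idh2*, the mitochondrial NADP-dependent isocitrate dehydrogenase, fell by 1.02 (SE 0.21, adjusted p = 0.0157 in limma). *Csl* fell by 0.7 (SE 0.13, adjusted p = 0.00977), but it is a close copy of *Cs*, and cross-hybridisation was not tested. In Cy5 alone *Acly*, which turns citrate into cytosolic acetyl-CoA, was higher by 0.61 (adjusted p = 0.0381 in limma), named after its value was seen. Its reference signal in Cy3 was 0.55 higher (adjusted p = 1.93e-06 in limma), and its ratio difference was -0.11.

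The 6 measured kinases and phosphatases of pyruvate dehydrogenase switch the complex off and on. In the ratio 0 of them fell and 0 rose (limma, adjusted p under 0.05), beside 7.75% and 6.59% of all genes. At an unadjusted p under 0.05, which more than 14.3% of all genes met, limma gave 0 lower and 1 higher of the 6. The largest differences were -0.7 for the kinase *Pdk4* (SE 0.44, adjusted p = 0.297) and 0.44 for the phosphatase regulator *Pdpr* (SE 0.16, adjusted p = 0.0995), which rose in Cy5 by 0.65 (adjusted p = 0.018). Of 8 measured carriers of cycle intermediates, 0 changed in the ratio (limma, adjusted p under 0.05), beside 14.3% of all genes. At the unadjusted threshold, met by more than 14.3% of all genes, limma gave 1 lower and 0 higher of the 8. *Mpc2*, part of the mitochondrial pyruvate carrier, gave -0.53 (adjusted p = 0.133 in limma) and fell in Cy5 by 0.82 (adjusted p = 0.0288). The citrate carrier *Slc25a1* gave -0.6 (adjusted p = 0.465 in limma), which rests on 1 array: control replicate 2 stood at 1.53 and the other 8 arrays between -1.51 and -1.04.

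Of 9 genes for lipoate synthesis and succinate dehydrogenase assembly, 0 fell and 2 rose (limma, adjusted p under 0.05). Of all genes 7.75% were called lower and 6.59% higher. At an unadjusted p under 0.05, which more than 14.3% of all genes met, limma gave 1 lower and 2 higher of the 9. *Lipt2*, a lipoyl transferase, rose by 0.96 (SE 0.17, adjusted p = 0.00998 in limma), with 0.43 in Cy5 alone (adjusted p = 0.136) and -0.58 in Cy3. *Oxsm*, a mitochondrial fatty acid synthase enzyme, rose by 0.64 (adjusted p = 0.00947 in limma), but Cy5 gave 0.034, Cy3 -0.31 and another probe 0.05, and its probe reached well above background on 2 of 5 treated and 3 of 4 control arrays. At the same unadjusted threshold, met by more than 14.3% of all genes, limma gave 0 lower and 3 higher of 11 regulators of mitochondrial biogenesis. After adjustment 0 fell, beside 7.75% of all genes, and 1 rose, beside 6.59% (limma, adjusted p under 0.05). This was *Ppargc1b*, a transcriptional coactivator, at 0.86 (SE 0.16, adjusted p = 0.011 in limma), with 0.42 in Cy5 (adjusted p = 0.0968) and -0.47 in Cy3, and its other probes gave 0.57 and 0.53. *Gabpa* gave 0.51 (adjusted p = 0.0675 in limma), but its other probes gave -0.24 and -0.33, and *Pprc1* gave 0.5 (adjusted p = 0.186).

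Of 13 general mitochondrial proteins 3 fell, 0 rose and 12 were below 0, with a median of -0.37 (limma, adjusted p under 0.05, with 6 lower and 0 higher unadjusted). Over all genes the shares were 7.75% lower and 6.59% higher after adjustment and 56.9% below 0, with a median of -0.07. More than 14.3% of all genes met an unadjusted p under 0.05 in limma. In Cy5 alone 4 fell and 1 rose, beside 8.8% of all genes lower and 10.1% higher. The gene that rose was *Timm44* of the import motor, by 0.86 (adjusted p = 0.014 in limma), named after its value was seen. Its reference signal in Cy3 was 0.97 higher (adjusted p = 8.13e-07 in limma), and its ratio difference was -0.25 (adjusted p = 0.37). Those that fell in the ratio were *Phb*, prohibitin of the inner membrane, by 0.75 (SE 0.2, adjusted p = 0.0428 in limma, with the spot of Fzd8-CRD replicate 1 left out, and a second probe at -0.46 with adjusted p = 0.0949), the outer membrane channel *Vdac2* by 0.66 (SE 0.17, adjusted p = 0.0341) and the import receptor *Tomm22* by 0.63 (SE 0.16, adjusted p = 0.0281). This median lies near the -0.41 of the 9 cycle enzymes.

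How far each enzyme's value depends on the settings was checked over 22 alternatives of normalization, filter, weighting and left-out arrays. The alternatives are not independent. Quantile normalization of mean intensity left every result as reported, and changing the filter on dim probes left each enzyme's difference unchanged. The scanner's ratio and the deposited table gave nearly the same values, so passes are not counts of separate tests. *Suclg1* passed in 21 of 22, between -1.26 and -0.86, and *Cs* in 11 of 22, between -0.74 and -0.41. *Idh3a* passed in 4, *Mdh2* and *Dlat* in 3 each, *Pdha1* in 2, *Sucla2* in 1, and *Ogdh* and *Fh1* in 0 of 22 (limma, adjusted p under 0.05). The passes of *Idh3a*, *Mdh2*, *Dlat* and *Pdha1* include the slide as a random block, which cannot separate slide from treatment. In Cy5 alone *Suclg1* and *Fh1* passed in 12 of 12 alternatives.

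**Figure D5:**
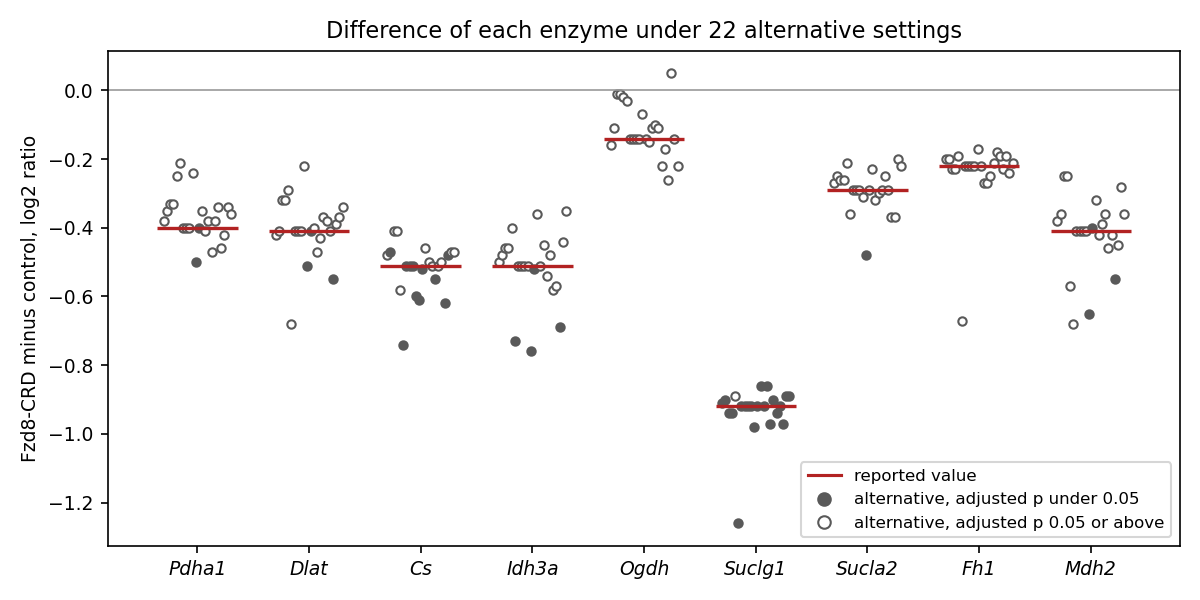
Difference in log2 ratio of each enzyme under 22 alternative settings (points, filled where the adjusted p is under 0.05) around the reported value (red line). *Suclg1* stays between -1.26 and -0.86, and *Ogdh* reaches 0.05 when control replicate 2 is left out.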

How the data were processed

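Per the file headers, Agilent Feature Extraction 9.5.3.1 wrote an intensity for each spot and dye (foreground mean and local background median). It also wrote its own background-corrected log10 ratio, per those deposited files. A deposited table of the whole series gives each array's linear ratio, and on the log2 scale it correlated with the software's value at 1. Further steps of the authors are not given in the sources used here.

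Groups came from the treatment label of each array. Replicate numbers follow accession order and pair nothing. Of 45018 spots on an array 1639 were controls, and over all arrays 1229 outlier spots were left out and 0 were saturated. Background was corrected with normexp (offset 50) and ratios were normalized by loess in limma 3.58.1 under R 4.3.3. For single dyes, quantile normalization followed normexp, and differences of dim genes are understated by the offset. From 41174 probes, 26822 with Cy5 signal well above background on 4 or more arrays were kept, and the brightest probe stood for each of 18262 genes. Probes were named by accession (23374), symbol (6733) or synonym (2919), and 8148 kept the name in the file. Groups were compared with limma and Benjamini-Hochberg adjustment over all genes, threshold 0.05, and differences are Fzd8-CRD minus control. The fit was tested on simulated data.

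The enzymes and the gene lists were chosen with earlier results of these data known. Named genes were the 9 enzymes with each kept probe, up to 4 genes past the threshold with the smallest p from each list around the cycle, where fewer than 2 passed up to 2 more with the largest difference, and the 5 genes outside these lists nearest in pattern. The other cycle subunits, *Acly* and *Timm44* were named after their values were seen. A gene from these lists is not reported here. Promoter sequences are from RefSeq (GRCm38.p6). The number of arrays limits the precision.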

Additional observations from a re-analysis of the deposited data

Results flagged for a closer look

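Of 36 groups of 4 or 5 arrays examined for an array far from the rest, 2 stood out, both for *Cs*. Chance marks about 1 in 20 groups. Control replicate 1 had a log2 ratio of *Cs* of -0.54, where the other controls lay between -0.13 and -0.09. Fzd8-CRD replicate 3 had -0.57, where the other 4 arrays lay between -0.78 and -0.75. These arrays are the ones that bring the groups of *Cs* close together.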

How the results depend on the processing

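No paired analysis was possible because the labels give no replicate numbers that the groups share. Of the 9 enzymes, 2 changed in the ratio as reported and 0 with median centring (limma, adjusted p under 0.05). Only *Suclg1* changed with a normexp offset of 16, the scanner's ratio or the deposited table. The same held with Fzd8-CRD replicates 1 and 2 averaged and control replicates 3 and 4 averaged. The number of enzymes that changed was 7 with array weights and 6 with the slide as a random block (consensus correlation -0.168). No slide held both groups, so the block cannot separate slide from treatment, and its added calls are not read as support. The number of enzymes that changed lay between 1 and 4 with 1 array left out (4 without control replicate 1). Genes changed numbered 2619, against 613 with median centring, 6018 with array weights and 5506 with the slide as a block. They numbered 338 with the arrays averaged in those pairs, and 1340 to 3092 with 1 array left out. Calls in the lower direction made up 54.1% as reported, 43.9% with the scanner's log ratio and 42.9% with the deposited table. In Cy5 alone these shares were 46.5%, 76.5% with median centring and 62.8% with a 75th percentile scaling, and 4 enzymes changed with median centring against 2. With 1 array left out *Ogdh* ranged from -0.26 to 0.05, above 0 without control replicate 2, and in Cy5 with median centring *Ogdh* turned to -0.14 and *Pdha1* to -0.17. The cause was not tested. All 9 enzymes were well above background on all 9 arrays.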
